A study of Homo sapiens with 95 samples.

Results

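Keratins are the intermediate filament proteins of epithelial cells, and each filament pairs a type I with a type II keratin. Basal cells of stratified and pseudostratified epithelia, the airway included, make the type II keratin KRT5 with the type I keratins KRT14 and KRT15. KRT6A, KRT16 and KRT17 are grouped here with the basal keratins and are known to be induced in wounded, stressed or hyperproliferating epithelium. Simple epithelia, such as the luminal layer of the airway and glands, instead carry KRT8 with KRT18, usually together with KRT7 and KRT19. The counts of these 10 genes, 6 basal and 4 simple keratins, were taken by symbol from the 23895 genes listed for every well. No cut on a measured value was applied, but the genes were chosen with earlier results of these data known.

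The counts came from 3′ digital gene expression (3′DGE), in which each molecule carries a unique molecular identifier (UMI) and is read near its 3′ end, so that a level does not grow with transcript length. All wells held AALE cells, a bronchial epithelial line of human origin that was immortalized in culture, as 8 populations under 4 chemicals. The overexpression populations carried NRF2 (NFE2L2, the transcription factor of the antioxidant response), FGFR1 (a growth factor receptor), NRG1 (a ligand of ERBB receptors) or PIK3CA (a catalytic subunit of PI3 kinase), and their control was a vector holding the reporter HcRed (HCRED). The knockout populations were edited by CRISPR at FAT1 (an atypical cadherin) or CDKN2A (a locus of cell cycle inhibitors), and their control had received the Cas9-EGFP plasmid without a guide (GFP). Each population was exposed to the solvent DMSO, to cigarette smoke condensate (CSC) at 24 µg/ml, to benzo[a]pyrene (BaP) at 173 µM or to the tobacco nitrosamine NNK at 490 µM.

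Of the 95 wells, the 82 with replicate numbers of 1 digit were used for every main comparison, and 25 of their 31 groups held 3 wells. The other 13 wells carry numbers of 2 digits and may be repeats of a single sample. The study calls the replicates of each condition biological, but the labels do not say whether the wells of a group came from separate cultures. The p-values therefore measure the spread between the wells of a group, which may be technical. On the plate each row held a single chemical. Each population kept the same columns under every chemical, and another population held those columns in a different row. NRF2 and HCRED, for example, shared columns and differed by row. Neither chemical and row nor population and position can therefore be told apart. Wells held 692446 to 1895735 UMI counts. The targeted transcript was higher in every DMSO well of each overexpression population than in every HCRED well, with NFE2L2 at 139 to 163 CPM (counts scaled to a common library total) against 36.8 to 51.9 CPM. FAT1 and CDKN2A transcripts were lower in every well of their knockouts, although a 3′ tag outside an edited site does not check the edit. EPCAM, CDH1 and TP63, which mark epithelial and basal cells, were counted in 82 of 82 wells. The endothelial markers CDH5 and VWF and the leukocyte marker CD3E were at 0 in all 82 wells, and each of the fibroblast markers COL1A2, COL3A1 and PDGFRB was counted in 1 well. The endothelial marker PECAM1 was counted in 65 wells at up to 5.42 CPM and the fibroblast marker COL1A1 in 50 wells at up to 2.32 CPM. CD68, also listed as a leukocyte marker, was counted in all 82 wells at up to 37.2 CPM. The summed level of 6 fibroblast markers differed by population, mainly through DCN, from at most 2.52 CPM in GFP to between 6.46 and 15.8 CPM in NRG1, and its part in the results was not tested.

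The genes lie in the keratin clusters of chromosomes 12 and 17. On the hg19 build, KRT7 spans chr12:52626304-52645970 on the plus strand, and KRT6A at chr12:52880960-52887041 and KRT5 at chr12:52908359-52914314 lie on the minus strand. KRT8 at chr12:53290971-53343738, also minus, overlaps the start of KRT18 at chr12:53342655-53346690, plus, in the annotation used. The type I genes other than KRT18 are all on the minus strand of chromosome 17, with KRT15 at chr17:39669997-39678781, KRT19 at chr17:39679869-39684560, KRT14 at chr17:39738531-39743147, KRT16 at chr17:39766030-39772151 and KRT17 at chr17:39775694-39781094. Many keratins have pseudogenes or near-identical copies. Of the 46-base words in the last 500 bases of the transcript, 41.3% in KRT18, 25.3% in KRT8, 22.9% in KRT14 and 18.2% in KRT16 also occurred in another annotated gene, against 6.15% in KRT17, 3.08% in KRT7, 2.20% in KRT19 and 0 in KRT5, KRT15 and KRT6A. Of the words of KRT16, 18.2% were shared with genes that the files list, KRT17 among them, so the level of KRT16 is the least certain.

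RefSeq promoter windows (GRCh38.p14) were given for 2 of the 10 genes, KRT5 and KRT8. The stretch of the KRT5 window that lies before the first annotated base of the gene is shown because KRT5 is the keratin with the most calls below. It matched hg19 once, at chr12:52914315-52914428 on the minus strand, and its capitals mark the only match to any of 5 motifs searched on both strands of the 250 bases before the start.

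KRT5 upstream: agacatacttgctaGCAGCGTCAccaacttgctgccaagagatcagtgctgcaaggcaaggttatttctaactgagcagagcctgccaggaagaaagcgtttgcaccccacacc

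The capitals are a match, on the reverse strand, to TGACNNNGC, the core of the antioxidant response element, a pattern found in 11% of 27305 such windows. TATAAA (in 11.1% of windows), GGGCGG (42.3%), TGANTCA (6.6%) and GCGTG (31.9%) were not found in the windows of KRT5 or KRT8. Such matches describe the letters only.

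Over the 82 wells the most abundant of the 10 transcripts were KRT17 with a mean of 229.0 CPM, KRT19 with 221 CPM, KRT5 with 189.0 CPM and KRT6A with 175 CPM. KRT18 followed with 118 CPM, and KRT8, KRT7 and KRT14 had means of 37.2, 35.2 and 34.6 CPM. KRT15 with 5.77 CPM and KRT16 with 3.64 CPM were low, at 1 to 25 and 0 to 17 counts a well, and KRT16 was at 0 in 6 of the 82 wells. The line thus carried both the basal and the simple set. In the HCRED control under DMSO, KRT19 made up 22.4% of the counts of the 10 keratins (SD 0.499, n = 3), KRT6A 21.4%, KRT5 20.6% and KRT17 19.6%, while KRT8 and KRT18 together stayed below KRT5.

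**Figure D1:**
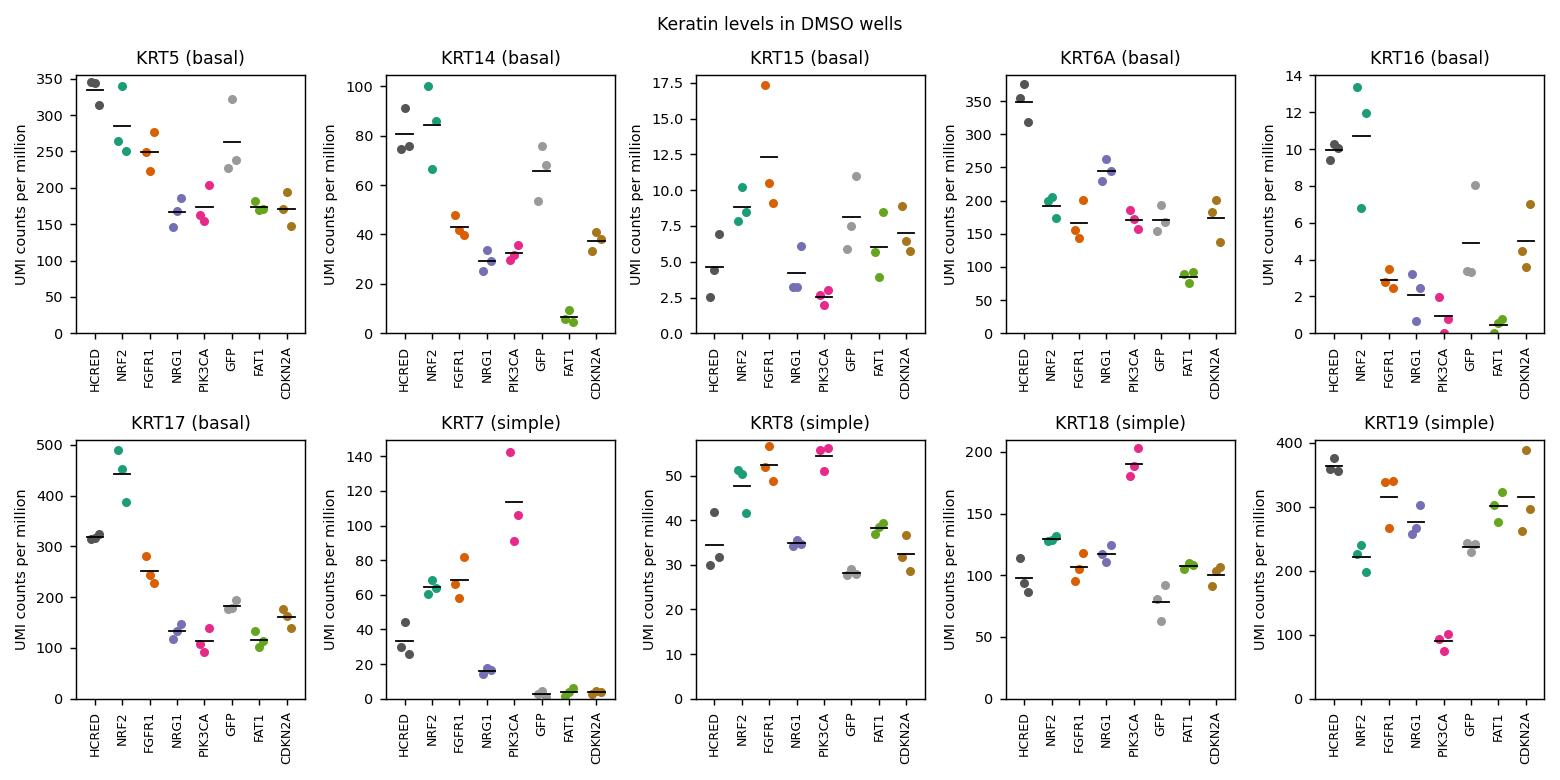
Level of each keratin in CPM of UMI counts (vertical axes, from 0) in the 3 DMSO wells of each population (points), with the mean as a line. HCRED wells are highest for KRT6A, FAT1 wells lowest for KRT14, and PIK3CA wells highest for KRT7 and KRT18 and lowest for KRT19.

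The effect of each genetic change was read under DMSO, from a limma-voom fit of the 6 wells of a population and its control over all genes with a mean count above 1, where a gene was called at a Benjamini-Hochberg adjusted p under 0.05. All 10 keratins passed the filter in every comparison. KRT16 in FAT1 against GFP did so only through the GFP wells. In a bulk well, fewer cells of a type and less RNA per cell cannot be told apart.

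PIK3CA cells differed from HCRED cells in 9 of the 10 keratins, against 5.4% of all genes tested. All of the called basal keratins were lower and 3 of the 4 simple keratins were higher, with KRT19 as the exception. KRT19 was at 92.7, 75.2 and 101 CPM in the PIK3CA wells and at 359, 376 and 355 CPM in the HCRED wells. The wells were far apart, and KRT19 fell by 1.97 on the log2 scale (SE 0.10, limma adjusted p = 3.42e-27), or 3.92-fold. KRT7, its usual companion in glandular epithelium, instead rose from 29.9, 44.1 and 25.6 CPM to 142, 91.3 and 106 CPM. This was a log2 fold change of 1.82 (SE 0.17, limma adjusted p = 4.63e-14), and the other simple pair rose with it. KRT18 was at 180, 189 and 203 CPM against 114, 94.1 and 86.7 CPM (log2 1.03, SE 0.11) and KRT8 at 55.6, 51.0 and 56.2 CPM against 29.9, 41.9 and 31.8 CPM (log2 0.71, SE 0.16).

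The basal keratins of PIK3CA cells were lower in every well than in any HCRED well, KRT15 excepted. KRT17 was at 108, 92.6 and 140 CPM against 314, 316 and 324 CPM and fell by 1.45 (SE 0.10). KRT14 fell by 1.26 (SE 0.16), KRT6A by 0.96 (SE 0.08) and KRT5 by 0.90 (SE 0.09), the last from 346, 344 and 314 CPM to 162, 154 and 204 CPM. KRT16 was nearly lost, with 4 UMI counts in the 3 PIK3CA wells against 38 in the HCRED wells, a rate ratio of 0.0932 with a 95% counting interval of 0.0242 to 0.259. Its adjusted p by limma was 0.000775. KRT15, at 2.65, 2.01 and 3.04 CPM against 2.57, 4.41 and 6.97 CPM, did not pass the test.

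NRG1 cells had the same basal keratins lower, with no simple keratin called higher. Here 7 of the 10 keratins were called, all lower, against 3.08% of all genes. KRT17 was at 118, 134 and 146 CPM and fell by 1.19 (SE 0.08, limma adjusted p = 1.26e-20). KRT14, at 25.2, 33.7 and 29.2 CPM against 74.4, 91.2 and 75.9 CPM, fell by 1.38 (SE 0.15). KRT5, at 147, 169 and 186 CPM, fell by 0.93 (SE 0.08), beside 0.90 (SE 0.09) in PIK3CA cells. KRT16 held 10 counts in 3 wells against 38, a rate ratio of 0.213 (95% counting interval 0.0944 to 0.435). Its call was lost without NRG1 replicate 2 (log2 -1.65, limma adjusted p = 0.0520). KRT6A fell least among them, by 0.44 (SE 0.07).

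Among the simple keratins of NRG1 cells, KRT7 moved opposite to its direction in the other overexpression populations. It was at 14.2, 17.5 and 16.5 CPM, below each HCRED well, and fell by 0.94 (SE 0.22, limma adjusted p = 0.00278), a call lost without HCRED replicate 2 (log2 -0.72, limma adjusted p = 0.118). KRT19 fell by 0.33 (SE 0.07). KRT18 had a log2 difference of 0.35 (SE 0.11, limma adjusted p = 0.0567) and KRT8 of 0.09 (SE 0.17), and neither passed. KRT18 gained a call under 3 of 13 alternatives. With all chemicals pooled and the chemical as a covariate, the calls of KRT6A (log2 -0.23, limma adjusted p = 0.824) and KRT19 (log2 -0.17, limma adjusted p = 0.889) were lost.

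FGFR1 cells differed in 5 keratins, against 0.914% of all genes. KRT6A was at 156, 143 and 201 CPM against 354, 375 and 318 CPM in HCRED cells, and its fall of 1.09 (SE 0.12, limma adjusted p = 2.44e-16) was the largest of KRT6A in any comparison. In the other control, GFP, KRT6A was at 154, 193 and 167 CPM, and the FGFR1 wells overlapped these. KRT14 fell by 0.91 (SE 0.17) to 47.8, 41.9 and 39.8 CPM. KRT7 rose to 66.5, 58.0 and 82 CPM, by 1.04 (SE 0.18), so KRT7 was higher and KRT14 lower in every FGFR1 well than in any HCRED well. KRT5 at a log2 difference of -0.44 (SE 0.12, limma adjusted p = 0.0228) and KRT16 at -1.67 (SE 0.47, limma adjusted p = 0.0405) were called, but KRT5 lost its call without any 1 of 5 wells and KRT16 without any 1 of the 6. KRT15, the low-level basal keratin, was at 17.3, 10.5 and 9.11 CPM against 2.57, 4.41 and 6.97 CPM, and its difference of 1.35 (SE 0.41, limma adjusted p = 0.0783) did not pass. KRT8 was at 51.9, 56.6 and 48.9 CPM, above every HCRED well, with a log2 difference of 0.59 (SE 0.19, limma adjusted p = 0.118). KRT17 was below every HCRED well, with a difference of -0.36 (SE 0.12, limma adjusted p = 0.130).

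NRF2 cells showed another mix, with 6 of 10 keratins called against 4.91% of all genes. The basal pair was not called, with KRT5 at a log2 difference of -0.15 (SE 0.08) and KRT14 at 0.12 (SE 0.13). Without NRF2 replicate 2, KRT5 was called at -0.28 (limma adjusted p = 0.0429). KRT17 was at 490.3, 453 and 387 CPM against 314, 316 and 324 CPM and rose by 0.56 (SE 0.07, limma adjusted p = 3.11e-09), while KRT6A fell by 0.77 (SE 0.08, limma adjusted p = 3.23e-12). The injury-associated keratins KRT6A and KRT17 were thus called in opposite directions. KRT7 rose by 1.07 (SE 0.17) to 60.6, 68.7 and 64.1 CPM, and KRT18 rose by 0.50 (SE 0.11). KRT19 fell by 0.62 (SE 0.08) to 227, 241 and 198 CPM. KRT8 was called at 0.55 (SE 0.17, limma adjusted p = 0.0371), but its wells overlapped those of HCRED, and it lost the call under 7 of 13 alternatives.

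**Figure D2:**
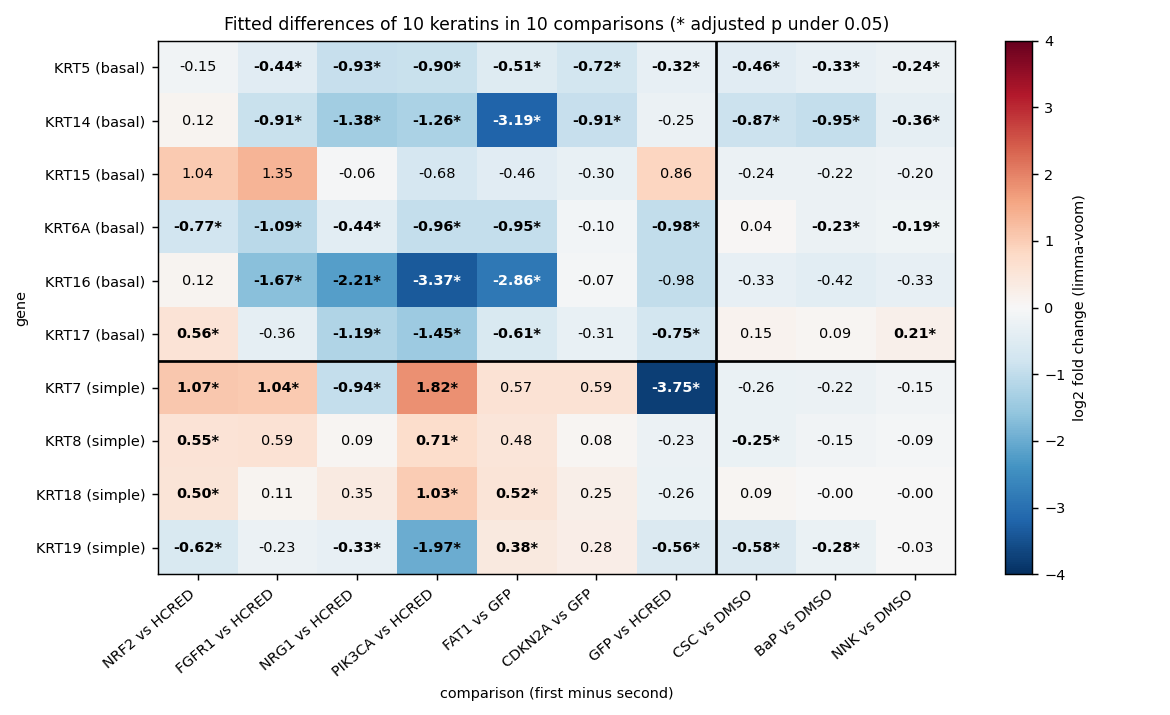
Fitted log2 fold changes from limma-voom (colour and number) of 10 keratins (rows, basal above the line) in 7 comparisons of populations under DMSO and 3 of chemicals (columns), with an asterisk where the adjusted p was under 0.05. No basal keratin was called higher except KRT17, in NRF2 cells and under NNK.

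FAT1 knockout cells were compared with GFP cells, and 7 of 10 keratins were called, against 14.1% of all genes. The basal keratin KRT14 was at 5.71, 9.63 and 4.63 CPM against 53.7, 75.6 and 68.2 CPM. It fell by 3.19 (SE 0.28, limma adjusted p = 7.77e-17), or 9.15-fold, while its filament partner KRT5 fell by 0.51 (SE 0.09), from 227, 322 and 238 CPM to 182, 170 and 171 CPM. The ratio of KRT5 to KRT14 counts was 17.6 to 37 in FAT1 wells and 3.48 to 4.26 in GFP wells. KRT6A fell by 0.95 (SE 0.11) to 88.9, 75.3 and 92.6 CPM, the lowest DMSO wells of any population, and KRT17 fell by 0.61 (SE 0.10). KRT16 held 2 counts in the 3 FAT1 wells against 19 in GFP wells (rate ratio 0.0853, 95% counting interval 0.00964 to 0.354, limma adjusted p = 0.00846), a call lost without any 1 of 3 wells. It is 1 of the 7 called but passed the filter only through its GFP wells, so nothing is read from its call. Among the simple keratins, 2 rose, KRT18 by 0.52 (SE 0.13) to 105, 110 and 108 CPM and KRT19 by 0.38 (SE 0.08). KRT8 was at 36.8, 38.5 and 39.3 CPM against 27.7, 29.1 and 27.9 CPM, wells that did not overlap, with an adjusted p of 0.0655 by limma.

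CDKN2A knockout cells differed from GFP cells in KRT5 and KRT14 alone, 2 of 10 keratins, where 17.9% of all genes were called. KRT5 was at 171, 194 and 148 CPM and fell by 0.72 (SE 0.13). KRT14 was at 33.5, 41.0 and 38.2 CPM and fell by 0.91 (SE 0.18). The other basal keratins had log2 differences of -0.31 for KRT17, -0.30 for KRT15, -0.10 for KRT6A and -0.07 for KRT16. KRT19 was above every GFP well, at 263, 389 and 296 CPM against 243, 228 and 242 CPM, with an adjusted p of 0.1002 by limma.

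The control populations were not alike. Between GFP and HCRED cells 5 of 10 keratins were called, all lower in GFP, against 10.8% of all genes. KRT7 was at 2.52, 4.15 and 0.733 CPM in GFP wells and at 29.9, 44.1 and 25.6 CPM in HCRED wells. It held 9 counts against 128, a rate ratio of 0.0714 (95% counting interval 0.0319 to 0.140, limma adjusted p = 3.07e-07). The difference went with the control: over all chemicals KRT7 stayed between 0.733 and 6.71 CPM in the 30 wells of GFP, FAT1 and CDKN2A and between 8.26 and 142 CPM in the 52 wells of HCRED and the overexpression populations, and the ranges of no other keratin were separate in this way. In knockouts KRT7 held 17 counts in each against 9 in GFP, and no difference was detectable at this depth. KRT6A fell by 0.98 (SE 0.08), KRT17 by 0.75 (SE 0.08) and KRT19 by 0.56 (SE 0.07) from HCRED to GFP. KRT5 was called at -0.32 (SE 0.08, limma adjusted p = 0.00771), with wells that overlapped, and lost the call under 5 of 13 alternatives. These cells differ in vector and in Cas9 as well as in reporter, and these cannot be told apart.

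Across the 7 comparisons KRT5 and KRT6A were each called lower in 6, KRT14 in 5, and KRT16 and KRT17 in 4, with KRT17 higher in 1. The 4 of KRT16 include FAT1, where it passed the filter only through the GFP wells. KRT8 and KRT18 were never called lower, and were called higher in 2 and 3. KRT7 was called higher in 3 and lower in 2, and KRT19 higher in 1 and lower in 4. The 4 overexpression comparisons share the HCRED wells and the knockouts share the GFP wells, so they are not independent of each other. KRT6A was highest in HCRED, and its DMSO wells in FGFR1, PIK3CA and the GFP control overlapped. The median log2 difference of the 6 basal keratins was -1.11 in PIK3CA, -1.06 in NRG1, -0.78 in FAT1, -0.67 in FGFR1, -0.53 in GFP, -0.30 in CDKN2A and 0.12 in NRF2, while the median of all genes tested lay between -0.03 and 0.03 in each. For the 4 simple keratins it was 0.87 in PIK3CA, 0.53 in NRF2, 0.50 in FAT1, 0.35 in FGFR1, 0.26 in CDKN2A, -0.12 in NRG1 and -0.41 in GFP.

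The order of levels under DMSO differed from gene to gene. KRT14 was highest in NRF2 and HCRED cells (means of 84.2 and 80.5 CPM), whose wells overlapped, and lowest in FAT1 cells at 6.66 CPM (SD 2.63, n = 3), below every well of NRG1, the next in order. KRT5 ran from 335 CPM in HCRED to 167 CPM in NRG1, and CDKN2A, FAT1, PIK3CA and NRG1 at the low end overlapped. KRT17 ran from 444 CPM in NRF2 to 113 CPM in PIK3CA, and KRT6A from 349 CPM in HCRED to 85.6 CPM in FAT1. Among the simple keratins KRT18 ran from 191 CPM in PIK3CA to 78.7 CPM in GFP, KRT8 from 54.3 to 28.2 CPM in the same populations, and KRT19 from 364 CPM in HCRED to 89.7 CPM in PIK3CA.

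**Figure D3:**
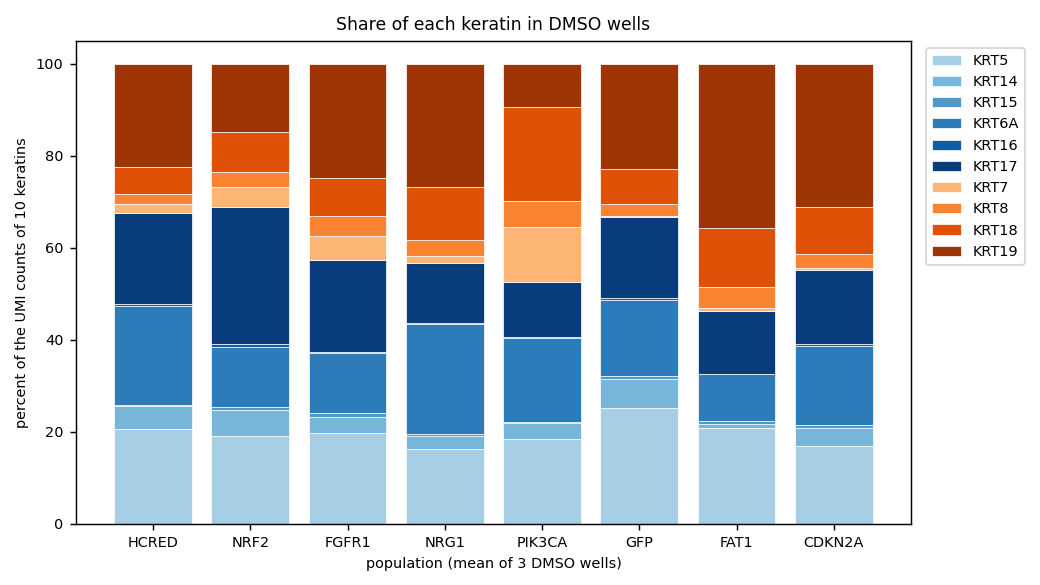
Share of each keratin in the summed UMI counts of the 10 keratins (percent, mean of 3 DMSO wells) in each population, with basal keratins in blue and simple keratins in orange. KRT19 takes 35.8% in FAT1 and 9.48% in PIK3CA, where KRT18 takes 20.3% and KRT7 12%.

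The makeup of the keratin pool showed how unlike populations with similar totals could be. The 10 keratins summed to 1627 CPM in HCRED cells and 1488 CPM in NRF2 cells, and to 942 CPM in PIK3CA and 840 CPM in FAT1 cells (means of 3 wells). The basal keratins summed to 1097 CPM (SD 45.6, n = 3) in HCRED, 494 CPM (SD 44.1, n = 3) in PIK3CA and 389 CPM (SD 27.3, n = 3) in FAT1. Their sum in GFP, the control of FAT1, was 696 CPM (SD 79.1, n = 3). The simple keratins summed to 530 CPM (SD 28.7, n = 3) in HCRED and 448 CPM (SD 36.3, n = 3) in PIK3CA, and to 347 CPM (SD 19.8, n = 3) in GFP and 451 CPM (SD 24.3, n = 3) in FAT1, so that the simple sum was below its control in PIK3CA and above it in FAT1. PIK3CA and FAT1 cells thus had close simple sums made of different genes. In PIK3CA cells KRT18 and KRT7 made up 20.3% and 12% of the pool and KRT19 9.48%, whereas in FAT1 cells KRT19 made up 35.8%, KRT18 12.9% and KRT7 0.454%.

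The ratio of summed basal to summed simple counts within a well, which does not depend on scaling between wells, was 2.07 (SD 0.0270, n = 3) in HCRED and 2.21 (SD 0.1004, n = 3) in NRF2. It was 1.34 (SD 0.0473) in FGFR1, 1.31 (SD 0.0817) in NRG1 and 1.10 (SD 0.0592) in PIK3CA, all 3 below every HCRED well. Against 2.02 (SD 0.338) in GFP it was 1.24 (SD 0.215) in CDKN2A and 0.864 (SD 0.0583) in FAT1, the only population in which simple keratins outnumbered basal ones under DMSO. No test was applied to this ratio over chosen genes.

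KRT19 was the most abundant simple keratin under DMSO in every population except PIK3CA. With KRT19 left out, a choice made after its values were seen, the ratio was 6.65 (SD 0.552) in HCRED, 4.24 (SD 0.333) in NRF2, 3.44 (SD 0.261) in NRG1, 3.19 (SD 0.286) in FGFR1 and 1.38 (SD 0.0918) in PIK3CA. PIK3CA cells, not FAT1 cells at 2.60 (SD 0.267), then stood lowest. NRF2 cells went from slightly above HCRED (log2 difference 0.09) to below it (-0.65), and the wells of each population apart from GFP lay below every HCRED well. The log2 differences of FAT1 (-1.21 with KRT19 and -1.29 without) and CDKN2A (-0.70 and -0.65) from GFP changed by less than the spread between wells.

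**Figure D4:**
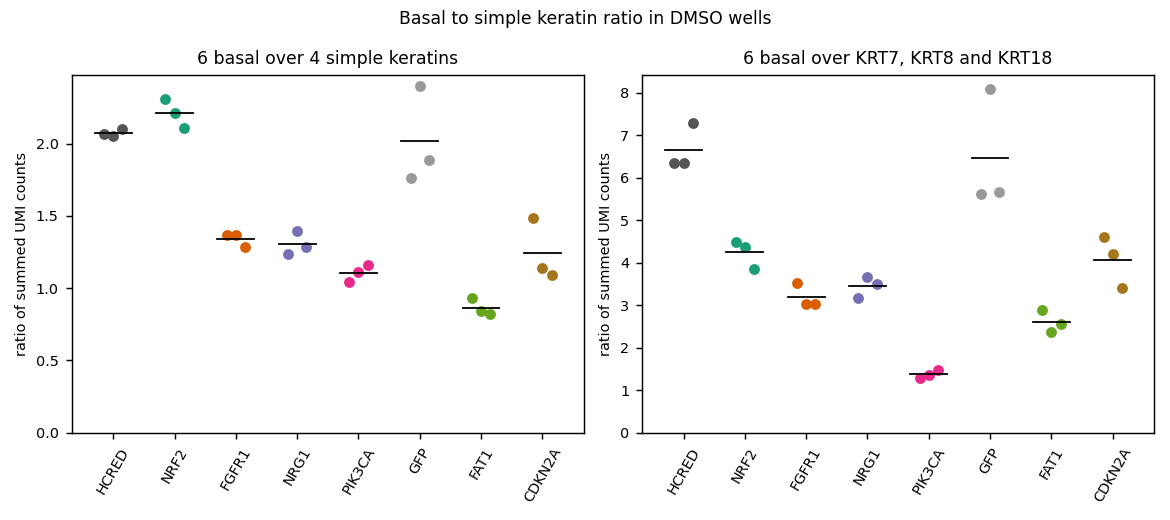
Ratio of summed UMI counts of the 6 basal keratins to all 4 simple keratins (left) and to KRT7, KRT8 and KRT18 (right) in the 3 DMSO wells of each population (points; lines are means). FAT1 is lowest on the left with a mean of 0.864 and PIK3CA lowest on the right with 1.38.

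The population differences were then followed under the other chemicals, where 3 wells of both populations allowed it. The share of all genes whose wells separate in the same way was not counted. The keratins named are therefore a description only. FAT1 and GFP could be compared under all 4. KRT5, KRT14, KRT6A and KRT17 were lower and KRT8, KRT18 and KRT19 higher in every FAT1 well than in every GFP well under each of the 4. FAT1 to GFP ratios of mean CPM were 0.101 to 0.162 for KRT14 and 1.36 to 1.89 for KRT8. KRT16 was also lower under each, but at very low counts. Under CSC its highest FAT1 well was at 1.58 CPM and its lowest GFP well at 1.80 CPM, so nothing is read from it. PIK3CA and HCRED had 3 chemicals in common. KRT14, KRT6A, KRT17 and KRT19 were lower and KRT7, KRT8 and KRT18 higher in every PIK3CA well under all 3, with ratios of 0.246 to 0.315 for KRT19 and 3.41 to 4.93 for KRT7. In NRF2 cells KRT17 and KRT7 were higher and KRT6A and KRT19 lower under all 3. In GFP cells KRT6A, KRT17, KRT7 and KRT19 were lower than in HCRED cells under all 3. In NRG1 cells KRT14, KRT16 and KRT17 were below HCRED under both chemicals compared, but KRT5, KRT6A, KRT7 and KRT19 overlapped under NNK. For KRT5, KRT6A and KRT7 the overlap rested on NRG1 NNK replicate 2 alone, and the other NRG1 wells, for KRT5 at 154 and 140.5 CPM, lay below every HCRED well, of which the lowest was at 213 CPM.

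The NNK wells of NRG1 differed among themselves. Replicate 2 held KRT19 at 450.2 CPM, the highest of the 82 wells, against 309 and 267 CPM in the other wells, with KRT5 at 257 against 154 and 140.5 CPM and KRT6A at 349 against 201 and 217 CPM. KRT17, at 138 against 159 and 178 CPM, was not raised there. The fitted effects of NNK are therefore given with and without that well, and the ratio and list counts under NNK with it only.

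The effect of each chemical was fitted with population as a covariate, on those populations that had 3 wells under it and 3 under DMSO. The basal pair KRT5 and KRT14 fell under each of the 3 chemicals, and their fitted responses were below 0 in 5 of 5 populations under CSC, 5 of 5 under BaP and 7 of 7 under NNK. Each of the 3 fits called 4 of 10 keratins, against 5.81% of all genes under CSC, 9.16% under BaP and 7.22% under NNK. The 3 fits share DMSO wells as their baseline, so they are not independent of each other.

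Under CSC, KRT14 fell by 0.87 (SE 0.10, limma adjusted p = 3.11e-11) and KRT5 by 0.46 (SE 0.06, limma adjusted p = 8.02e-10). In HCRED cells KRT14 went from 74.4, 91.2 and 75.9 CPM to 39.9, 39.1 and 51.7 CPM, and in NRF2 cells from 99.9, 66.7 and 85.9 CPM to 43.1, 35.4 and 30.8 CPM. In GFP cells it went from 53.7, 75.6 and 68.2 CPM to 39.5, 26.6 and 29.1 CPM. These 3 populations did not overlap between CSC and DMSO, whereas PIK3CA and FAT1 did. KRT19 fell by 0.58 (SE 0.05, limma adjusted p = 1.14e-16), in HCRED cells from 359, 376 and 355 CPM to 222, 236 and 229 CPM and in FAT1 cells from 303, 276 and 323 CPM to 227, 213 and 191 CPM. It was below every DMSO well in 4 of the 5 populations. KRT8 was called at -0.25 (SE 0.08, limma adjusted p = 0.0322), a call lost under 7 of 15 alternatives, while its partner KRT18 had a difference of 0.09 (SE 0.05) and was not called. KRT17 (0.15, SE 0.05, limma adjusted p = 0.0681) and KRT6A (0.04, SE 0.05) were not called under CSC either.

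Under BaP, KRT14 fell by 0.95 (SE 0.11, limma adjusted p = 2.10e-10), furthest in GFP cells, from 53.7, 75.6 and 68.2 CPM to 20.9, 27.6 and 17.8 CPM. KRT5 fell by 0.33 (SE 0.06), and in NRG1 cells, at 187, 132 and 171 CPM against 147, 169 and 186 CPM, its wells overlapped. KRT19 fell by 0.28 (SE 0.04) and KRT6A by 0.23 (SE 0.05, limma adjusted p = 0.00182), the latter in GFP cells from 154, 193 and 167 CPM to 114, 112 and 107 CPM. KRT6A lost the call without replicate 3 of every group (log2 -0.18, limma adjusted p = 0.0761).

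NNK gave the smallest fitted falls of the basal pair, at 0.36 (SE 0.08, limma adjusted p = 0.00181) for KRT14 and 0.24 (SE 0.05, limma adjusted p = 0.000992) for KRT5. KRT17 rose by 0.21 (SE 0.06, limma adjusted p = 0.0193) and KRT6A fell by 0.19 (SE 0.05, limma adjusted p = 0.0143), again in opposite directions. KRT17 was at 358, 405 and 374 CPM in HCRED cells, above all DMSO wells, but in the other 6 populations the wells overlapped. KRT19, at a difference of -0.03 (SE 0.05), was not called. Without NRG1 NNK replicate 2 the same 4 keratins were called, with KRT17 at 0.25, KRT6A at -0.21, KRT5 at -0.26 and KRT14 at -0.34. Without the HCRED wells the calls of KRT17 (0.20, limma adjusted p = 0.0761) and KRT6A (-0.11, limma adjusted p = 0.276) were lost, as they were without replicate 1 of every group. KRT17 was also lost without the NRF2 wells (limma adjusted p = 0.0601) and KRT6A without the PIK3CA wells (limma adjusted p = 0.0776). KRT5 lost its call without replicate 3 (-0.21, limma adjusted p = 0.0844).

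**Figure D5:**
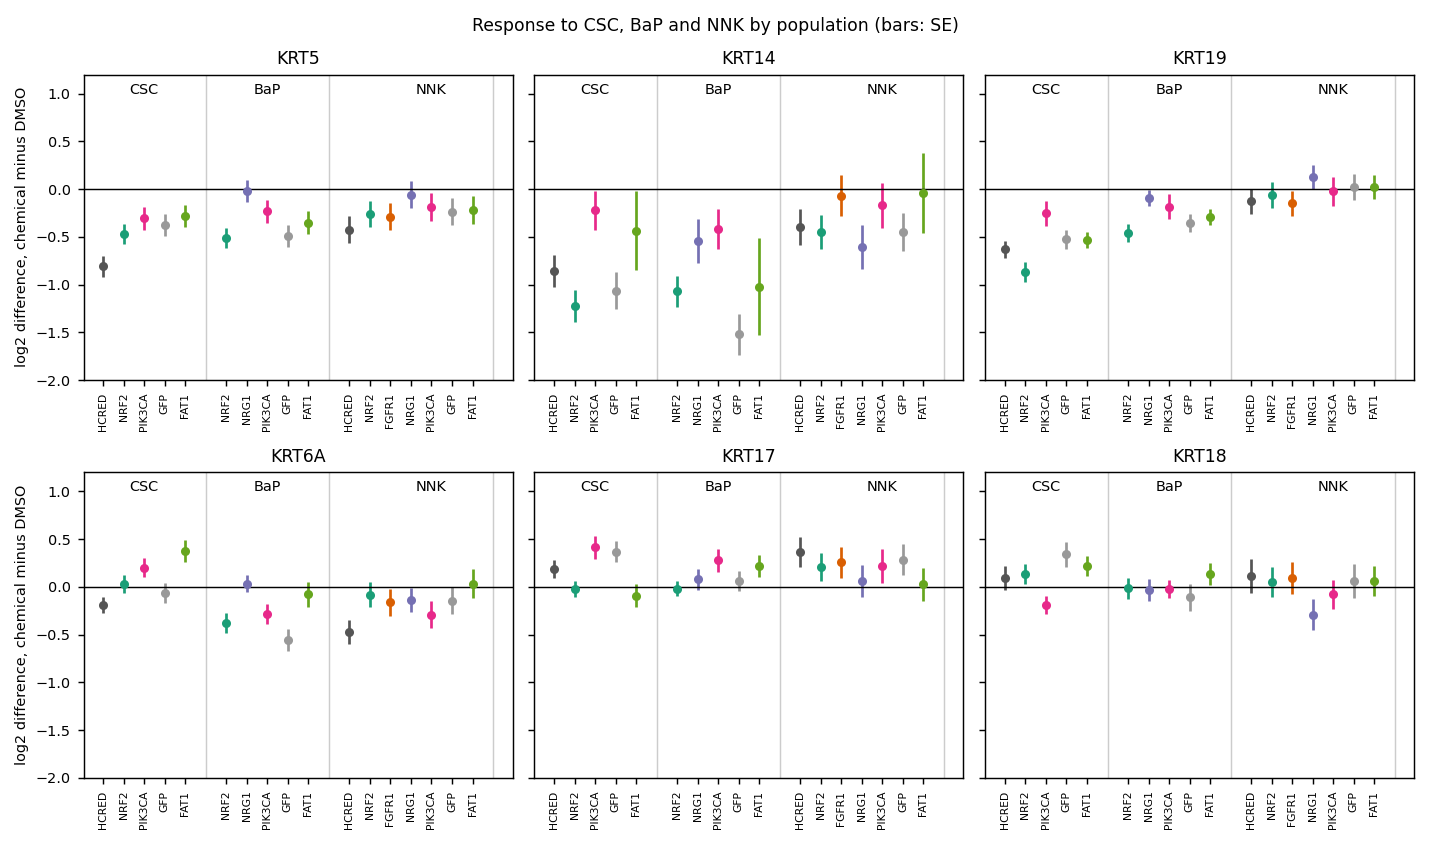
Fitted log2 differences between each chemical and DMSO (vertical axis) for 6 keratins in each population with 3 wells under both (points, bars are SE). KRT5 and KRT14 lie below 0 in every population under each chemical, and KRT19 lies below 0 in 5 of 5 under CSC and BaP.

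Whether the response differed between populations was tested by an interaction of population and chemical with a moderated F. No keratin was called under any chemical, by limma-voom or by edgeR, where 0.106% of all genes were called for CSC, 0.106% for BaP and 0.0176% for NNK. At an unadjusted p under 0.05 limma-voom gave 6 keratins under CSC, 3 under BaP and 0 under NNK, and edgeR gave 6, 4 and 0. The share of all genes at this unadjusted threshold was not counted, so nothing is read from these numbers. The lowest adjusted p by limma-voom was 0.431 under CSC and 0.318 under BaP, both for KRT6A. KRT14 responses ran from -1.22 (SE 0.17) in NRF2 to -0.22 (SE 0.20) in PIK3CA under CSC, with no difference passing the test (adjusted p = 0.594 by limma).

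The wells with replicate numbers of 2 digits entered no main fit, only alternatives of the chemical fits. They were compared with the DMSO wells of their own population, which also served as baseline in those fits. KRT14 was below every such DMSO well in 7 of 7 wells under CSC, 4 of 4 under BaP and 2 of 2 under NNK. KRT5 was below in 6 of 7, 4 of 4 and 2 of 2, and KRT19 in 7 of 7, 4 of 4 and 1 of 2. KRT7 under BaP was below in 4 of 4. Under CSC other keratins went both ways, with KRT17 below in 3 and above in 4 of 7, and KRT18 below in 1 and above in 5. The share of all genes beyond these DMSO ranges was not counted. Some of these wells may be repeats of 1 sample, so their number is not a number of replicates.

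The basal to simple ratio was then set beside DMSO for each chemical. Under CSC the mean ratio was higher than under DMSO in 5 of 5 populations, and all CSC wells were above all DMSO wells in 3 of them, for example 2.37 to 2.41 against 2.05 to 2.10 in HCRED. The mean log2 difference over populations was 0.20 for CSC, -0.01 for BaP and -0.05 for NNK, with a spread between wells (SD) of 0.11, 0.16 and 0.13. With KRT19 left out it was -0.10 under CSC, and with KRT5, KRT14 and KRT15 as the only basal keratins it was -0.18.

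Genes of the same structures were counted from lists of known roles, to be read against the share of all genes called in each comparison, which was 17.9% in CDKN2A, 14.1% in FAT1, 10.8% in GFP, 5.4% in PIK3CA, 4.91% in NRF2, 3.08% in NRG1 and 0.914% in FGFR1, and 5.81% under CSC, 9.16% under BaP and 7.22% under NNK. Of 46 other keratin genes, 4 to 6 passed the filter on low counts in a comparison, and KRT222 in CDKN2A cells (log2 2.45) was the only one called in any. KRT10 and KRT80 were measured and not called. Desmosomes are the junctions to which keratin filaments anchor between cells, and of 12 desmosome and plakin genes tested 7 were lower in CDKN2A, 5 in PIK3CA, 4 in NRG1 and 5 under NNK, with none higher there. CSC and BaP each lowered 3, FAT1 had 2 lower and 2 higher, GFP had 1 lower, and NRF2 and FGFR1 had 0 called. The desmosomal cadherin DSC3 was called at log2 differences of -1.12 in CDKN2A, -1.14 in PIK3CA, -0.90 in NRG1 and -0.63 in FAT1. The plakin DSP, which links filaments to the junction, was called at -0.91 in CDKN2A, -0.98 in PIK3CA and -0.93 in NRG1. PERP fell by 0.84 in PIK3CA and by 0.65 in NRG1.

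Hemidesmosomes anchor the filaments to the basement membrane. Of 9 such genes 5 were lower in NRF2, 4 in FAT1, 3 in PIK3CA, 2 in FGFR1 and 2 in NRG1, with none higher there, and in CDKN2A and GFP the calls went both ways (1 higher and 1 lower, and 2 higher and 1 lower). BaP lowered 5, NNK 3 and CSC 1. The laminin chain LAMB3 fell by 1.45 in NRF2 and by 1.13 in PIK3CA, and the plakin DST fell by 0.79 in PIK3CA. Of 10 or 11 basal identity genes tested, at most 2 were lower in any population comparison, and only CDKN2A had any higher (1). S100A2 fell by 0.73 in FAT1 and by 0.61 in FGFR1 but rose by 0.22 in CDKN2A and by 0.35 with NNK. The integrin ITGB1 fell by 0.69 in CDKN2A, and SNAI2, a transcription factor of basal cells, was higher by 0.67 in CSC wells, by 0.49 in BaP wells and by 0.58 in NNK wells. The chemicals otherwise gave this list 1 higher and 1 lower under CSC, 1 and 3 under BaP, and 2 and 2 under NNK, SNAI2 included.

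Of 17 squamous differentiation genes, many of them low, 11 or 12 passed the filter in FGFR1, NRG1, PIK3CA and GFP against HCRED but 5 in FAT1 against GFP. Members that passed only through the group where they are high had to differ, so nothing is read from the counts of this list. Of those tested, 7 were lower in each of FGFR1, NRG1, PIK3CA and GFP. S100A8, a calcium-binding protein of inflamed and squamous epithelium, was called at log2 differences of -3.60 in FGFR1, -3.01 in NRG1, -3.84 in PIK3CA and -3.76 in GFP. Its partner S100A9 was called at -2.01, -1.63, -2.35 and -4.32 in the same order. In CDKN2A both were higher, S100A8 by 1.16 and S100A9 by 3.04, and S100A8 was called at 0.49 in NRF2 and -0.998 in FAT1. CSTA, a protease inhibitor of the cornified envelope, fell by 0.84 in PIK3CA and rose by 0.33 in GFP, the only higher call there. NRF2 had 1 higher and 0 lower, FAT1 3 lower of 5 tested, and CDKN2A 3 higher and 2 lower of 8. Under CSC 3 were higher and 1 lower of 10, under BaP 0 and 1, and under NNK 1 and 0 of 11.

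Of 8 to 10 luminal, secretory and ciliated genes tested, the calls went both ways in FGFR1 and PIK3CA (2 higher with 1 and 2 lower), in CDKN2A (1 higher, 2 lower), and 3 were higher in FAT1. NRF2 had 0 called, NRG1 1 lower and GFP 2 lower, and CSC, BaP and NNK had 1, 3 and 1 higher. EPCAM, an adhesion protein of epithelial cells, rose by 1.28 in CDKN2A, 0.74 in FGFR1, 0.62 in FAT1 and 0.58 in PIK3CA. SLPI, a secreted protease inhibitor, was called at -1.67 in FGFR1, -1.40 in NRG1 and -1.09 in PIK3CA, at -2.83 in GFP, at -0.54 in CDKN2A and at 0.48 in FAT1. AGR2 was called at 1.03 in FAT1, -0.80 in PIK3CA and -1.40 in GFP. Among 5 other intermediate filament genes tested, VIM, the filament of mesenchymal cells, rose by 1.24 in FGFR1, 1.54 in NRG1 and 1.88 in PIK3CA, where KRT14 and KRT6A fell, and fell by 0.91 in CDKN2A. SYNM rose by 1.56 in GFP, LMNA was called in none, and no gene of this list was called in NRF2, in FAT1 or under any chemical.

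Over the 25 group means of log2 CPM, which share depth, plate and controls, the 10 keratins fell into different patterns. KRT16 correlated with KRT17 at r = 0.862, with KRT14 at 0.796 and with KRT5 at 0.789, and KRT5 with KRT14 at 0.733. KRT8 correlated with KRT18 at 0.750, while KRT19 correlated with KRT18 at -0.716 and with KRT7 at -0.554. These are descriptions over 25 points that are not independent. KRT16 is low and shares part of its 3′ words with KRT17, so its correlations are the least certain. Among 3350 other genes with a mean of at least 20 CPM, the closest to KRT7 were SPARC (r = 0.987) and BBS9 (0.984), which like KRT7 separate the 2 control populations. The closest to KRT17 were S100A8 (0.869) and GSTA4 (0.860), to KRT16 S100A8 (0.791) and CSTA (0.769), and to KRT6A IWS1 (0.836) and CTSC (0.816). KRT14 was closest to KIF4A (0.875) and FUBP1 (0.873), KRT5 to PDCD4 (0.760) and DSC3 (0.745), and KRT15 to DSC3 (0.671) and DSP (0.651). KRT18 was closest to RARS (0.915) and NPM1 (0.891), KRT8 to MRPL40 and CASP1 (both 0.837), and KRT19 to S100A4 (0.831) and APMAP (0.770).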

How the data were processed

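The authors deposited raw UMI counts per gene, not normalized, in 1 file per well. By the study's methods the matrices were received already quantified: reads had been placed on hg19 RefSeq transcripts with BWA aln (version 0.7.10 in the submitters' processing notes), and reads of a well with the same UMI were counted once per gene. The total per well, from 692446, sets the precision. Intervals of summed counts cover counting error only and are exact conditional ones.

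Groups came from the sample titles. The main test was that of the study, limma with voom, run here as limma 3.58.1 (R 4.3.3) with voom weights and TMM factors from edgeR 4.0.16, on genes with a mean count above 1, two-sided, with Benjamini-Hochberg adjustment over all genes tested and a threshold of 0.05. The study instead kept the most variable genes after fitting and tested chemicals within each genotype. Population comparisons used 6 DMSO wells, and chemicals used population as a covariate over 30 wells (CSC, BaP) or 42 wells (NNK). Variances were shrunk strongly (prior degrees of freedom of 40.5 or more), so very small p-values rest on the spread shared between genes. Correlations used log2 CPM with a prior count of 2. The fits were tested on simulated data. Alternatives included edgeR's quasi-likelihood test, DESeq2 1.42.0, other scaling, filters and samples.

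The 10 genes, the lists and the rules were chosen with earlier results of these data known. All 10 keratins were named, from each list the 3 genes called in most comparisons, and for each keratin the 2 genes most like it. Some genes that these rules name are not reported here. Gene positions came from GENCODE on hg19.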

Additional observations from a re-analysis of the deposited data

Results flagged for a closer look

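KRT6A under CSC was picked out because all wells of some populations lay beyond their DMSO wells in opposite directions. The share of all genes that meet this rule was not counted, so the keratins picked out by it are a description only. Every CSC well was below every DMSO well in HCRED cells (298, 291 and 309.9 CPM against 354, 375 and 318 CPM) and above every DMSO well in PIK3CA cells (187, 201 and 186 CPM against 185, 172 and 157 CPM) and in FAT1 cells (106, 103 and 124 CPM against 88.9, 75.3 and 92.6 CPM). The fitted responses spanned 0.5685 on the log2 scale, from -0.19 (SE 0.08) in HCRED to 0.38 (SE 0.12) in FAT1. The interaction test over all 5 populations did not pass (limma adjusted p = 0.431), and the HCRED and FAT1 pair on its own was not tested.

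KRT18 under CSC was picked out in the same way. It was below every DMSO well in PIK3CA cells (154, 158 and 175 CPM against 180, 189 and 203 CPM) and above every DMSO well in NRF2, GFP and FAT1 cells, for example at 133, 124 and 125 CPM against 105, 110 and 108 CPM in FAT1. The fitted responses spanned 0.534, from -0.19 (SE 0.09) in PIK3CA to 0.34 (SE 0.13) in GFP, and the interaction test did not pass (limma adjusted p = 0.743).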

How the results depend on the processing

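Of 1581 fitted values of single keratins under alternatives, 1501 had an unchanged call and sign, 49 lost a call, 31 gained one, and none of the called values changed sign. A change of sign in a value called under neither setting was not counted. The number of keratins called stayed within 1.5 times the reported one in 151 of 160 refits. For FGFR1 it was 3 in place of 5 with the replicate block, and 3 to 6 with 1 well left out. For NRG1 it was 4 with DESeq2, which gave no adjusted p for 3 of the 7. For NNK it was 2 without the HCRED population and 2 to 4 with a replicate left out. Correlations of the deviations of same-numbered wells ran from -0.06 to 0.05 over 24 pairs of groups, none with every correlation above 0.1. These deviations include counting error, and whether same-numbered wells were paired was not tested beyond these values. The replicate block is therefore given as an alternative only. With the block CDKN2A went from 2 to 3 and CSC from 4 to 6, and the other counts did not move.

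The basal to simple ratio moved by more than the spread between wells under several choices. On the log2 scale, with KRT5, KRT14 and KRT15 as the only basal keratins, it was 0.0375 in NRF2, -0.50 in FGFR1, -0.82 in NRG1, -0.77 in PIK3CA, -1.01 in CDKN2A, 0.28 in GFP, -0.18 under CSC and -0.22 under both BaP and NNK. With means of log2 CPM in place of sums NRF2 stood at -0.23, FGFR1 at -0.86, NRG1 at -0.74, PIK3CA at -1.59, FAT1 at -1.62, GFP at 0.63 and CSC at 0.00793. With KRT19 left out NRF2 stood at -0.65, FGFR1 at -1.06, NRG1 at -0.95, PIK3CA at -2.27 and CSC at -0.10. With a replicate left out it was -0.65 to -0.59 for FGFR1. The causes were not tested. Depth limits KRT15, KRT16 and, in GFP, FAT1 and CDKN2A cells, KRT7.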
